A study of Mus musculus with 12 samples.

Results

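The nuclear genes of oxidative phosphorylation encode the protein subunits of the respiratory chain complexes I to IV and of the ATP synthase, complex V. Their members were taken by gene symbol: names starting with Ndufa, Ndufb, Ndufc, Ndufs, Ndufv, Uqcr, Cox4 to Cox8 or Atp5, together with Sdha, Sdhb, Sdhc, Sdhd and Cyc1, without the assembly factors named Ndufaf and without names marked as pseudogenes. This gave 84 of the 18394 genes in the count table, with 35 in complex I, 4 in complex II, 9 in complex III, 19 in complex IV and 17 in complex V. Ndufa4 and Ndufa4l2 were counted in complex IV despite their symbols. The rule uses names and no expression value, although the set was proposed with earlier results of these data known.

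Complexes I and II pass electrons from NADH and succinate to ubiquinone, complex III passes them on to cytochrome c, and complex IV hands them to oxygen. The protons pumped on the way drive the ATP synthase. Each complex except complex II also holds subunits encoded by the mitochondrial genome, which are not analysed here, so the values below describe the nuclear share of the subunit transcripts. Neurons depend on this pathway for most of their ATP, and several subunits of complex IV exist as a widespread isoform and a second isoform typical of muscle, testis or low oxygen.

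Messenger RNA of mouse cerebellum was sequenced from 6 wild-type (WT) mice and 6 conditional knock-out (cKO) mice. The cKO genotype is Δα6-Cre Crfr1 knock-out, where Crfr1, listed as Crhr1, is the receptor for the stress peptide corticotropin-releasing factor and Gabra6 encodes the GABA-A receptor α6 subunit whose name the Cre line carries. The α6 subunit is typical of cerebellar granule cells, so other cell types of the tissue may keep an intact receptor gene. The labels give no age, sex, litter or Cre status of the WT mice. Below, WT and cKO name the libraries so labelled, and the number after them names a library in order of deposit only.

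Library totals ranged from 23803779 to 62104185 counts, and the 84 genes took between 1.01% and 1.07% of the counts of a library. Crhr1 had 97.6 ± 4.31 CPM (counts set to equal library sizes, with TMM factors; mean ± SD, n = 6) in WT and 98.8 ± 6.00 CPM in cKO, so the level of the whole gene does not separate the groups. A per-gene count does not show whether a segment of the gene is missing, and so does not check the labels. Gabra6 was lower in cKO, with 623 ± 30.0 against 813 ± 56.1 CPM, an edgeR log2 fold change of -0.38 (SE 0.041, adjusted p = 1.45e-05), and its groups did not overlap. Markers of cerebellar neurons were present in every library: 20 granule cell markers summed to 10877 to 11362 CPM in WT, and 16 Purkinje cell markers to 11026 to 11468 CPM in WT and 10402 to 11532 CPM in cKO. The p-values measure the spread between these 12 libraries.

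No member passed the test for a difference between the genotypes. Of the 84 genes, 82 had enough counts to be tested, and edgeR's quasi-likelihood test with Benjamini-Hochberg adjustment over all 15467 tested genes called 0 of them higher and 0 lower at an adjusted p under 0.05. Over all genes the same test called 2.64%, 1.27% higher and 1.38% lower. At an unadjusted p under 0.05, 10 members were lower in cKO and 0 higher, where 7.08% of all genes were lower and 7.16% higher. DESeq2 called 1 member, the rare complex IV isoform Cox7b2, against 3.99% of all genes. The authors' deposited table, also made with DESeq2, has an adjusted p under 0.05 for 1 of the 82 members that have one, again Cox7b2, against 3.71% of its genes.

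The estimates were small and most had the same sign. The log2 fold change of cKO against WT was negative for 67 of the 82 members (81.7%) and positive for 15, while 50.2% of all tested genes were negative. Its median was -0.029 over the members and -0.00027 over all genes. By complex the median was -0.028 in complex I (30 of 35 negative), -0.027 in complex II (4 of 4), -0.024 in complex III (6 of 9), -0.036 in complex IV (13 of 17) and -0.034 in complex V (14 of 17). The sign of the complex III median rests on 1 library, since it was 0.0013 without cKO 6. These genes were measured in the same libraries and vary together, so the counts of signs describe the set and carry no test. The authors' deposited table lists 67 members lower and 17 higher in cKO.

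The 95% intervals bound what these libraries leave room for. For 77 members, all those tested other than the 5 tissue isoforms of complex IV, the whole interval lay within 0.2 log2 units of 0, and for 40 it lay within 0.1. The median standard error over the members was 0.032. The interval excluded 0 for 10 members, each with a negative estimate. In the plot of fold changes these intervals can be compared gene by gene.

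Summed over the 84 genes, the WT libraries had 10407 to 10716 CPM with a median of 10589, and the cKO libraries 10108 to 10793 CPM with a median of 10335. The groups overlapped: cKO 4 was the highest of all 12 libraries, cKO 5 at 10544 CPM lay above WT 1 and WT 4, and cKO 2 was the lowest. The means were 10568 ± 109 CPM in WT and 10390 ± 246 CPM in cKO, a difference of -1.68%. Among single members, cKO 4 had the highest level of 20 of the 82 tested members and the lowest of 0, and cKO 2 had the lowest level of 21 and the highest of 2. Without cKO 4 the median log2 fold change was -0.043, with 75 members negative, 19 lower at an unadjusted p under 0.05 and 0 called. The score of markers of neighbouring brain regions was lowest in cKO 4 (-0.60) and highest in cKO 1 (0.47) of the 12 libraries, and its part in the sums was not tested library by library. With that score as a covariate 61 members were negative and the median was -0.024. Markers of choroid plexus and ependyma summed to 233 to 677 CPM in WT. In cKO they ran from 168 CPM in cKO 4 to 1068 CPM in cKO 6, and their part in the sums of the members was not tested.

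**Figure D1:**
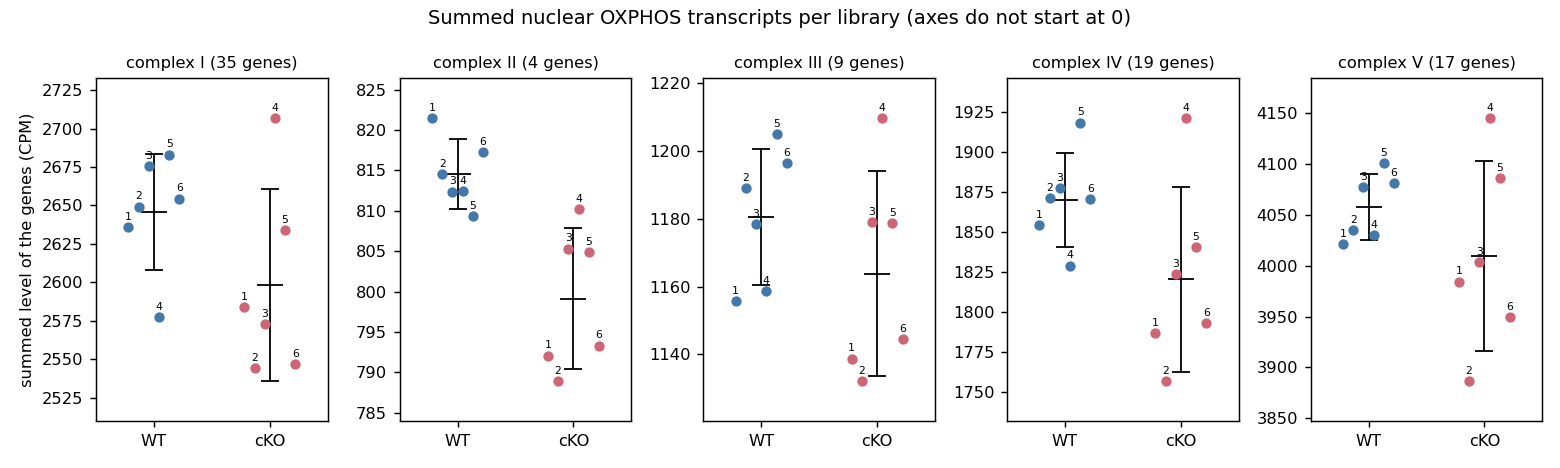
Summed level of the members of each complex in CPM (y axis, not starting at 0) for the 6 WT and 6 cKO libraries, numbered as in the text, with mean and SD. In complex II only cKO 4 reaches the WT range, and in the other complexes the groups overlap more widely.

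Some cell type markers differed between the same groups. Of 20 granule cell markers, 4 rose in cKO (Gabrd, Etv1, Calb2 and Kcnk9) and 6 fell (Gabra6, Neurod2, Zic1, Pax6, Grm4 and Reln). Their summed level was 10545 to 11455 CPM in cKO, overlapping the WT range given above. All 12 microglial markers had positive estimates (median 0.098), with Cx3cr1 and Csf1r called higher, and their sum was 173 to 189 CPM in WT and 184 to 216 CPM in cKO. All 11 endothelial markers had positive estimates, with 0 called by edgeR or DESeq2 and 0 at an unadjusted p under 0.05. Of 15 markers of inhibitory interneurons 13 were negative (median -0.080), 9 of them at an unadjusted p under 0.05 and Lgi2 called lower. Of 13 markers of astrocytes and Bergmann glia 0 were called, with 1 lower and 2 higher at an unadjusted p under 0.05. Of 15 oligodendrocyte lineage markers 0 were called, with 2 lower and 1 higher. Over all tested genes edgeR called 2.64%, and 7.08% were lower and 7.16% higher at an unadjusted p under 0.05. In whole tissue, fewer cells of a type and less RNA per cell cannot be told apart, and the part of these markers in the levels of the members was not tested.

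Complex I, the NADH dehydrogenase, summed to 2646 ± 37.8 CPM in WT and 2598 ± 62.5 CPM in cKO, a difference of -1.81%. The 7 core subunits, which carry the flavin and the iron-sulphur clusters or bind the quinone, lay between -0.061 and 0.016 in log2 fold change, with 5 of 7 negative. Ndufs1, which holds iron-sulphur clusters of the electron path, had 202 ± 1.96 CPM in WT and 198 ± 3.55 CPM in cKO, and did not pass the test (edgeR adjusted p = 0.61). Ndufv2, a subunit of the NADH-oxidising tip, was the core subunit with the smallest p (log2 fold change -0.061, SE 0.030, edgeR adjusted p = 0.37).

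Of the 28 accessory subunits of complex I, 25 had negative estimates, and 2 had an unadjusted p under 0.05. Ndufab1, the mitochondrial acyl carrier protein that also serves lipoic acid synthesis, had 61.5 to 72.5 CPM in WT with a median of 69.6, and 58.1 to 67.1 CPM in cKO with a median of 63.1. Its groups overlapped from 61.5 to 67.1 CPM, and only cKO 5 lay below the lowest WT library. The log2 fold change was -0.10 (SE 0.042, edgeR adjusted p = 0.26). Ndufa13, also known as GRIM-19, had 102 ± 5.15 CPM in WT and 95.7 ± 4.13 CPM in cKO (log2 fold change -0.086, SE 0.034, edgeR adjusted p = 0.25). Its annotated span overlaps Yjefn3 on the same strand and Tssk6 on the opposite one, and the rule by which reads in shared stretches were counted is not given in the sources used here.

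Complex II, succinate dehydrogenase, is the only complex built from nuclear genes alone and also a step of the TCA cycle. Its 4 genes summed to 809 to 821 CPM in WT with a median of 813, and 789 to 810 CPM in cKO with a median of 799. The ranges met only at cKO 4, at 810.2 CPM, against WT 5 at 809.3 CPM. The means were 815 ± 4.31 and 799 ± 8.74 CPM, a difference of -1.90%. Most of the sum is Sdha, the flavoprotein, with 502 ± 4.34 CPM in WT and 494 ± 1.82 CPM in cKO (edgeR adjusted p = 0.63). Sdhc, one of the 2 membrane anchors, had the smallest p of the complex, with 103 ± 1.43 CPM against 99.2 ± 3.71 CPM (log2 fold change -0.050, SE 0.026, edgeR adjusted p = 0.39). The cKO libraries of Sdhc spread from 92.3 CPM in cKO 1 to 103 CPM in cKO 3, so that 4 of 6 lay below the lowest WT library.

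In complex III, cytochrome bc1, the summed level was 1180 ± 20.1 CPM in WT and 1164 ± 30.3 CPM in cKO, a difference of -1.42%. The core proteins Uqcrc1 (log2 fold change 0.00047, SE 0.030) and Uqcrc2 (-0.024, SE 0.021) and the cytochrome Cyc1 (-0.030, SE 0.031) were close to 0. Uqcrfs1, the Rieske iron-sulphur protein, had 121 ± 2.65 CPM in WT and 116 ± 5.26 CPM in cKO, with 4 cKO libraries below the lowest WT library (log2 fold change -0.060, SE 0.029, edgeR adjusted p = 0.35). Uqcrq, a small subunit near cytochrome b, had 57.4 to 67.5 CPM in WT (median 64.0) and 55.9 to 62.0 CPM in cKO (median 58.6). Its WT libraries divided into WT 4 and WT 6 below 60 CPM, among the cKO values, and the other 4 above all cKO libraries. The log2 fold change was -0.095 (SE 0.038, edgeR adjusted p = 0.24). Uqcrq lies on chromosome 11, as Gabra6 does, and the part of that position in its level was not tested. The other members on this chromosome were Uqcr10 (log2 fold change -0.0046, SE 0.034), Atp5g1 (0.035, SE 0.054) and Atp5h (-0.034, SE 0.027).

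Complex IV, cytochrome c oxidase, had the largest difference of the 5 sums, 1870 ± 29.3 CPM in WT and 1820 ± 57.4 CPM in cKO (-2.65%), and the 3 members with the smallest p. Cox7b2, a rare paralogue of Cox7b, is annotated in GENCODE M21 on chromosome 5 from 71442824 to 71548205, minus strand. Its level was 0.882 to 2.31 CPM in WT with a median of 1.38, and 0.581 to 1.103 CPM in cKO with a median of 0.905. WT 3 stood highest, and WT 1 and WT 5 lay among the cKO values, so the groups overlapped. By edgeR this was -0.76 on the log2 scale (adjusted p = 0.068), with a standard error of 0.21 and an interval of -1.20 to -0.31. DESeq2 gave -0.74 (SE 0.22, adjusted p = 0.027), and the authors' deposited table gives -0.12 (SE 0.036, adjusted p = 0.028). The deposited fold change was also smaller in size for the rare Cox4i2, with -0.085 there and -0.26 by edgeR. For the abundant Cox5b the values were alike, -0.085 and -0.096. Sizes of rare genes in the deposited table are therefore not comparable with those given here, and the reason was not tested. Without WT 3 the log2 fold change was -0.56 with an edgeR adjusted p of 0.22, and without WT 5 it was -0.86 with an adjusted p of 0.029.

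Cox5b, the zinc-binding subunit on the matrix side, had 127 to 142 CPM in WT (median 137) and 120 to 134 CPM in cKO (median 127). WT 4 and WT 6 lay among the cKO libraries and the other 4 WT libraries above all of them. The log2 fold change was -0.096 (SE 0.031, edgeR adjusted p = 0.14), a difference of -6.43%. Cox7b, a small membrane subunit, had 137 to 145 CPM in WT (median 140) and 129 to 140 CPM in cKO (median 133). Here 5 of 6 cKO libraries lay below the lowest WT library and only cKO 4 within the WT range. The log2 fold change was -0.072 (SE 0.024, edgeR adjusted p = 0.15). The groups of CPM values overlapped for all 82 members, while 2.09% of all genes had groups that did not overlap.

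**Figure D2:**
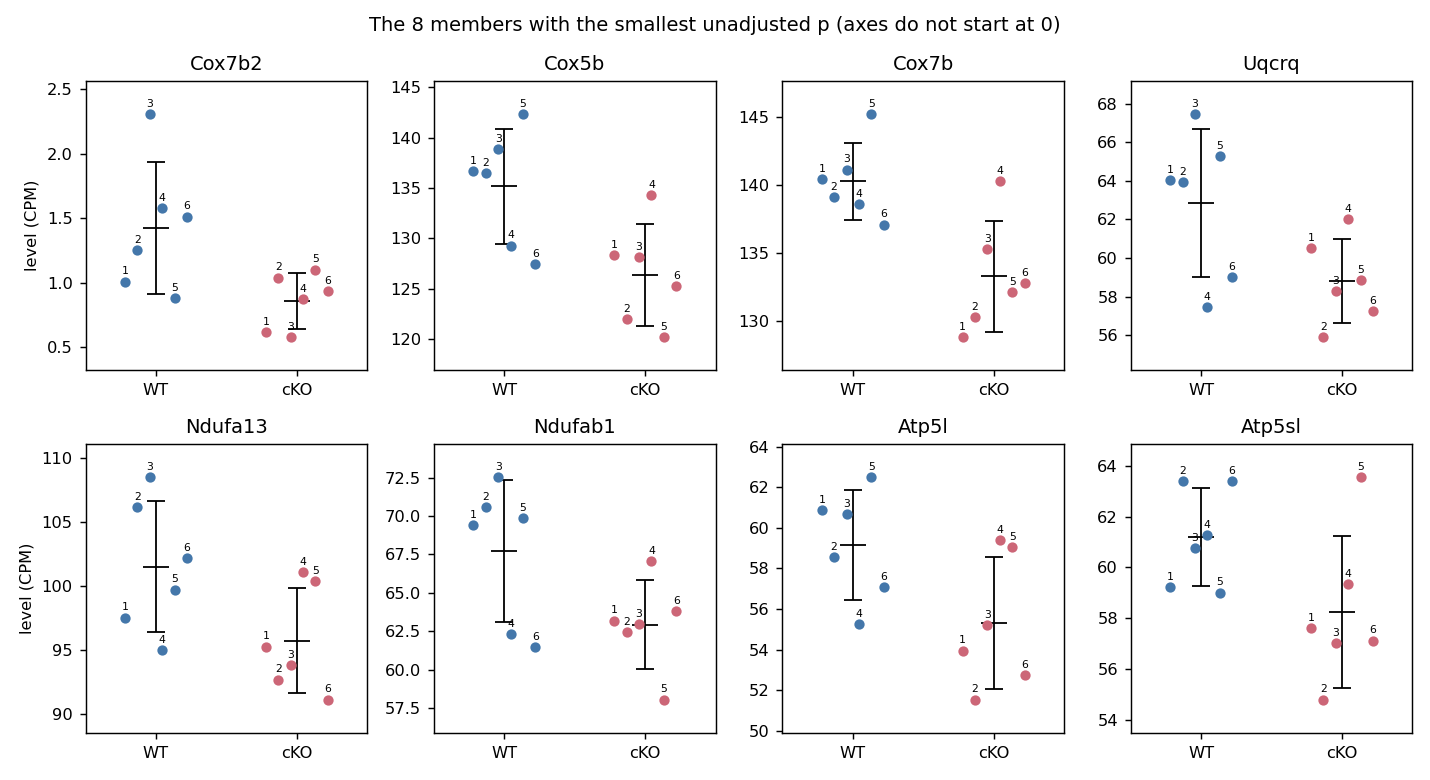
Level in CPM (y axes, not starting at 0) of the 8 members with the smallest unadjusted p, one point per library with its number, and mean and SD of 6 libraries per group. For Cox7b 5 of the 6 cKO points lie below all WT points, and WT 3 is the high point of Cox7b2.

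The promoter windows of these 3 genes are shown as the start regions of the members with the smallest p, in the orientation of the gene and running from 250 bases before to 50 bases after the annotated start. They come from RefSeq on GRCm38.p6, where 66 of the 84 members matched, with 71 windows. Capitals mark matches to the motifs searched on both strands: NRF1 as CGCATGCG or, more loosely, CGCANGCG, ETS factors as CCGGAAG, YY1 as AAGATGGCG, the E-box CACGTG and the TATA box TATAAA. The loose NRF1 motif includes the strict one.
Cox7b2, chr5:71548156-71548455, minus strand: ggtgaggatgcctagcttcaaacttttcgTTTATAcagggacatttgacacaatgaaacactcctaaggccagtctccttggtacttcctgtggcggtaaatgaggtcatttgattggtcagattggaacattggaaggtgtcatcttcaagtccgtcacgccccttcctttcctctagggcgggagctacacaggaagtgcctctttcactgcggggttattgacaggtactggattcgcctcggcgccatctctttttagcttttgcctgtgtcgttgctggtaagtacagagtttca
Cox5b, chr1:36691237-36691536, plus strand: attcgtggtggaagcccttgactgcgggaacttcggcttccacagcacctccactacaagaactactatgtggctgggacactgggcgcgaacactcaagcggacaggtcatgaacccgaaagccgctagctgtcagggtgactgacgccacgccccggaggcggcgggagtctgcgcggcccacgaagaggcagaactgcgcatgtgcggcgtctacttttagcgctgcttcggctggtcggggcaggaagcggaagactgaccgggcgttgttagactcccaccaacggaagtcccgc
Cox7b, chrX:106015450-106015749, plus strand: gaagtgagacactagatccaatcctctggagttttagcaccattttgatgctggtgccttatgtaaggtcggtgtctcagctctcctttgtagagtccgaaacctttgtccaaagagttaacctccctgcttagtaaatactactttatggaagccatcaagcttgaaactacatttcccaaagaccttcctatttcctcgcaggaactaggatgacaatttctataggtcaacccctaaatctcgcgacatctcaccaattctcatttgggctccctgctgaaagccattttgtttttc
None of the 3 holds the NRF1, ETS or YY1 letters in this window, and Cox7b2 has a TATA match on the opposite strand with its first base 221 bases before the start.

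NRF1, the ETS factor GABP and YY1 are the factors classically tied to nuclear genes of the respiratory chain. The loose NRF1 motif stood in 38.0% of the members' windows and 13.7% of the windows of all genes of the count table, the strict one in 12.7% and 3.07%. ETS letters stood in 22.5% against 13.7%, and YY1 letters in 9.86% against 2.27%. The E-box (8.45% against 8.98%) and the TATA letters (11.3% against 8.39%) were near the share of all genes. At least one of the loose NRF1, the ETS or the YY1 motif stood in 41 of the 71 windows. Shares are descriptions of letters in these windows and say nothing on binding in these samples.

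The single window with all 3 motifs belongs to Atp5j, which encodes a coupling factor in the stalk of the ATP synthase and whose annotated span overlaps Gabpa, the gene for the DNA-binding subunit of GABP, on the opposite strand. It is shown with its NRF1, YY1 and ETS letters, in that order, in capitals.
Atp5j, chr16:84834927-84835226, minus strand: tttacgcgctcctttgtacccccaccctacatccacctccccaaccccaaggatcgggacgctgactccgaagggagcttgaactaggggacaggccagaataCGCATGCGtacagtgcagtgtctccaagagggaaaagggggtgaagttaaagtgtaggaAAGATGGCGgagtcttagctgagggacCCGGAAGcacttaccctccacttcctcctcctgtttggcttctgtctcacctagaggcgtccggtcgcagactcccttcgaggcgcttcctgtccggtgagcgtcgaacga
Atp5j had 144 ± 5.55 CPM in WT and 140 ± 5.45 CPM in cKO (edgeR adjusted p = 0.62).

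In the other 6 windows with YY1 letters the motif lay downstream of the start, its first base 22 to 35 bases after it and always in the orientation of the gene. Those stretches are shown because their placement is alike across 2 complexes, with the motif in capitals. The searched letters contain ATG, the letters of a start codon. Whether these matches lie at the start of the coding sequence was not checked, so the like placement is no sign of YY1 sites.
Ndufa9, chr6:126849099-126849123, minus strand: tgtgggagAAGATGGCGgccgccgt
Ndufc1, chr3:51408917-51408941, minus strand: tgcggaacAAGATGGCGccgtccgt
Ndufs4, chr13:114388045-114388067, minus strand: cctacaggAAGATGGCGgcggtc
Ndufs6, chr13:73328433-73328457, minus strand: tcaccggcAAGATGGCGgcggtgct
Ndufs7, chr10:80249465-80249489, plus strand: ccgaggccAAGATGGCGgcgctggc
Atp5j2, chr5:145191502-145191526, minus strand: aggacttcAAGATGGCGtcactcgg
The estimates of these 6 genes differed in sign: the log2 fold change was 0.015 for Ndufa9, -0.016 for Ndufs4, -0.041 for Ndufs6, -0.051 for Ndufs7, -0.064 for Atp5j2 and -0.074 for Ndufc1, with 0 called.

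Complex IV is also where the members differ most in level. The widespread isoforms, compared per length of transcript, exceeded their partners many times over: Cox4i1 was 166-fold above Cox4i2 (129 to 223 over the 12 libraries), Ndufa4 178-fold above Ndufa4l2 (156 to 282), Cox7b 64.9-fold above Cox7b2 (33.1 to 126), Cox6b1 41.2-fold above Cox6b2 (32.4 to 50.5) and Cox7a2 21.5-fold above Cox7a1 (17.8 to 24.6). Cox4i2 is known from lung and low oxygen, Cox7a1 from heart and muscle and Cox6b2 from testis. Among the 5 tested rare isoforms the difference between genotypes was negative for Cox7b2, Cox4i2 (log2 fold change -0.26, SE 0.12, edgeR adjusted p = 0.35) and Cox7a1 (-0.093, SE 0.090) and positive for Cox6b2 (0.10, SE 0.10) and Ndufa4l2 (0.13, SE 0.11). Apart from Cox7b2, whose calls by DESeq2, by edgeR without WT 5 and in the authors' deposited table are given above, none of the 5 was called by edgeR or DESeq2. Their standard errors are several times those of the main isoforms.

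Cox6a2 and Cox8b, the heart and muscle isoforms, stayed under the low-count limit of the test. Cox6a2 had 4, 1, 4, 3, 4 and 1 counts in WT 1 to WT 6 and 3, 20, 11, 9, 10 and 7 counts in cKO 1 to cKO 6, in sum 17 and 60. The deeper sequencing of many cKO libraries is part of these raw counts. After scaling, Cox6a2 stood at 0.0902 ± 0.0567 CPM in WT and 0.207 ± 0.133 CPM in cKO, with overlapping groups. Cox8b had 2 to 8 counts in WT and 3 to 20 in cKO. Fitted without the limit, Cox6a2 had a log2 fold change of 1.33 (SE 0.48, edgeR adjusted p = 0.21) and Cox8b one of 0.44 (SE 0.41, edgeR adjusted p = 0.73). Markers of skeletal and cardiac muscle summed to 119 to 130 CPM in WT and 119 to 128 CPM in cKO.

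**Figure D3:**
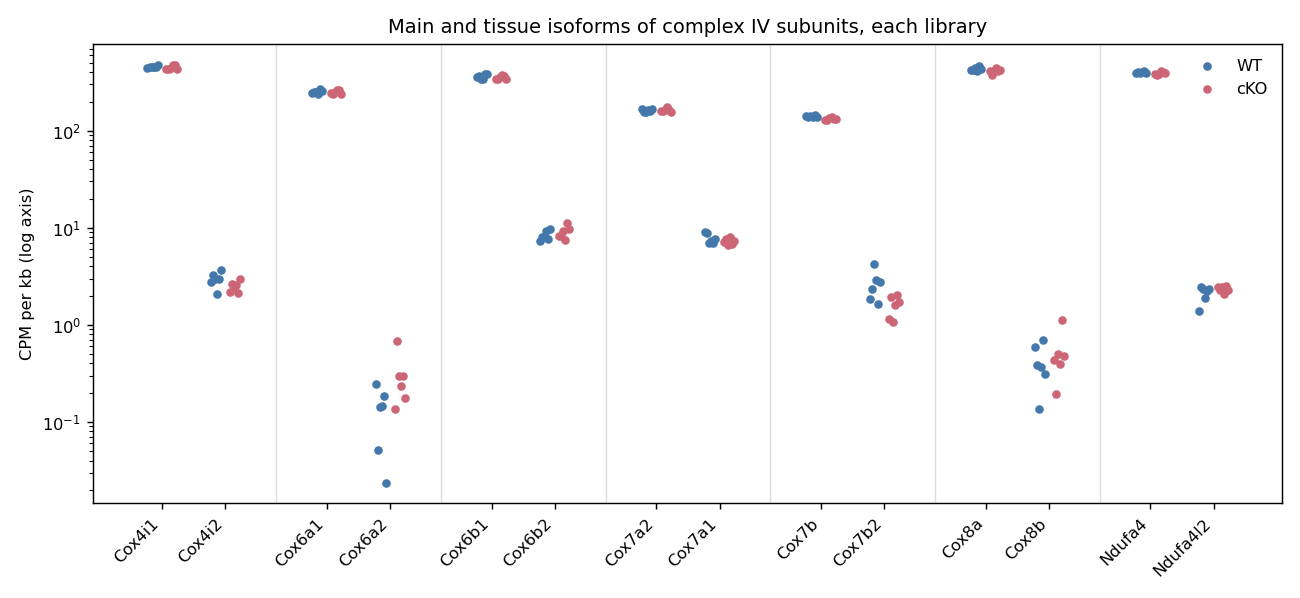
Level per length in CPM per kb of transcript (log y axis) of the main and the rare isoform of 7 subunits of complex IV, one point per library. Each main isoform lies above its partner in every library, and the points of both genotypes overlap for every gene.

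Complex V, the ATP synthase, contributed the largest sum, 4057 ± 32.8 CPM in WT and 4009 ± 93.4 CPM in cKO, a difference of -1.19%. Of its F1 head, the catalytic Atp5b had 1317 ± 17.1 CPM in WT and 1318 ± 29.5 CPM in cKO (log2 fold change 0.00070, SE 0.020, 95% interval -0.041 to 0.043), and Atp5a1 had 1001 ± 10.5 and 992 ± 13.8 CPM (-0.013, SE 0.018). Both most abundant subunits therefore differed by less than the spread between libraries. Atp5c1, the rotating central stalk, had 245 ± 5.57 and 236 ± 6.82 CPM (log2 fold change -0.051, SE 0.024, edgeR adjusted p = 0.35). Atp5l, subunit g of the membrane part, had 55.2 to 62.5 CPM in WT (median 59.6) and 51.5 to 59.4 CPM in cKO (median 54.6). Its 4 lowest cKO libraries lay below the lowest WT library, while cKO 4 and cKO 5 lay among the WT values (log2 fold change -0.095, SE 0.039, edgeR adjusted p = 0.26).

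The c ring that the protons turn is encoded by 3 genes with the same mature protein. Atp5g3 was the main source, 2.57-fold above Atp5g1 and 3.46-fold above Atp5g2 per length, and none differed between genotypes beyond its error (log2 fold changes -0.013, 0.035 and -0.013, with SE 0.027, 0.054 and 0.039). All 4 subunits of the peripheral stalk had negative estimates, between -0.043 and -0.017. Atp5s and Atp5sl, which the symbols place here though neither is a structural subunit of the enzyme, had -0.073 (SE 0.048) and -0.072 (SE 0.033).

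Levels per length differed between subunits of the same complex. Atp5b led with 688 ± 12.01 CPM per kb (mean ± SD over the 12 libraries), followed by Cox4i1 (452 ± 16.7), Cox8a (424 ± 22.2), Atp5a1 (403 ± 5.13), Uqcrh (397 ± 10.1) and Ndufa4 (397 ± 12.2). The last 3 do not differ beyond their spread. Median levels went from 83.0 CPM per kb in complex I over 107 in complex II and 129 in complex III to 162 in complex IV and 169 in complex V. The place of complex IV depends on its rare isoforms: without the tissue isoforms its median was 225 CPM per kb, the highest of the 5. Complex I reached from Ndufb4, an accessory subunit at 18.8 CPM per kb, to Ndufa6 at 175. These levels depend on the annotated transcript length, the median of the protein-coding models of GENCODE M21.

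**Figure D4:**
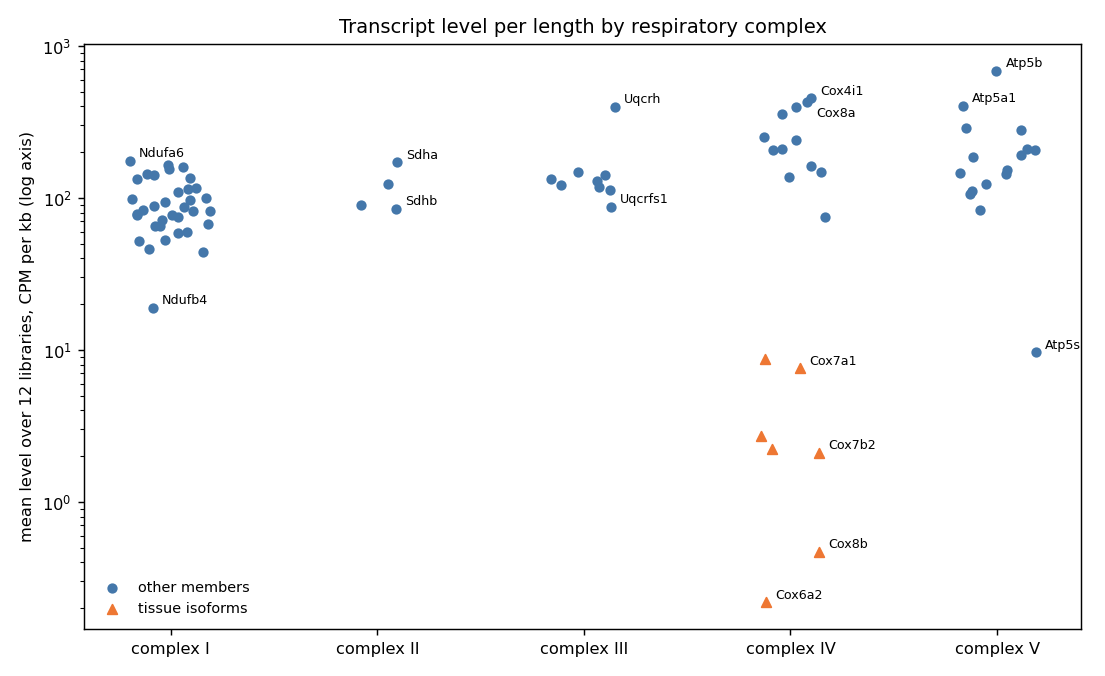
Mean level over 12 libraries in CPM per kb of transcript (log y axis) of each member with a known transcript length, by complex. The tissue isoforms of complex IV (triangles) lie at the bottom, and Atp5b at 688 CPM per kb is the highest point.

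The spread between libraries was small for both genotypes. The coefficient of variation of the tested members had a median of 3.35% in WT and 4.50% in cKO, and was larger in cKO for 51 of 82 members. The cKO 4 and cKO 2 libraries described above are the ends of the cKO range in every complex.

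Outside the subunits, 2 assembly factors fell in cKO. These proteins build the complexes without being part of them. Of 49 tested, 0 were called higher and 2 lower, with 33 negative and a median log2 fold change of -0.018, where 1.38% of all tested genes were called lower and 50.2% were negative. A count of 2 among 49 is too small to set against that background, and no test was made over the list. Lyrm7, which carries the Rieske protein Uqcrfs1 before it is inserted into complex III, had 6.58 to 9.14 CPM in WT (median 7.43) and 4.45 to 6.76 CPM in cKO (median 5.89), with 5 of 6 cKO libraries below the lowest WT library. Its log2 fold change was -0.45 (SE 0.10, edgeR adjusted p = 0.021). Lyrm7 lies on chromosome 11, 12.5 Mb from Gabra6, and the part of that position in its level was not tested. The complex III member Uqcrq, which starts at 53427922 on this chromosome, lies nearer to Gabra6 than Lyrm7, which starts at 54826866.

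Sdhaf1, which helps to fit the iron-sulphur clusters of Sdhb in complex II, had 15.9 to 17.7 CPM in WT (median 16.6) and 13.0 to 15.4 CPM in cKO (median 14.8). The groups did not overlap: even the highest cKO value, 15.4 CPM, lay under the lowest WT value. The log2 fold change was -0.18 (SE 0.046, edgeR adjusted p = 0.042). Each call depends on the libraries used: Lyrm7 passed in 10 of the 12 fits that leave out 1 library and not without WT 1 (adjusted p = 0.055) or WT 3 (adjusted p = 0.065), and Sdhaf1 passed in 2 of the 12, those without cKO 4 or cKO 6. Over the 12 the adjusted p of Sdhaf1 ran from 0.034 to 0.096. The fold changes of both genes were negative in all 12. DESeq2 called both genes, with adjusted p of 0.0011 for Lyrm7 and 0.019 for Sdhaf1. With surrogate variables neither passed (adjusted p = 0.071 and 0.49), Lyrm7 also missed the threshold with counts thinned to the smallest library (0.11), and Sdhaf1 with the neighbouring tissue covariate (0.076) or without the low-count limit (0.052). Their client subunits Uqcrfs1 and Sdhb had the values given above for Uqcrfs1 and 97.4 ± 2.95 against 95.8 ± 5.36 CPM for Sdhb (edgeR adjusted p = 0.82).

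None of the other 4 pathway lists held a gene called by edgeR or DESeq2. Of 20 regulators of mitochondrial biogenesis, 10 were positive and 10 negative, 4 of these at an unadjusted p under 0.05. The coactivators Ppargc1a (78.5 ± 2.65 against 73.8 ± 4.06 CPM, log2 fold change -0.089, SE 0.035) and Ppargc1b (29.8 ± 2.35 against 27.4 ± 1.09 CPM, -0.13, SE 0.046) and the receptor Esrra (66.2 ± 1.89 against 62.3 ± 3.41 CPM, -0.088, SE 0.034) had the smallest p, with edgeR adjusted p from 0.19 to 0.23. Among 17 genes of pyruvate dehydrogenase and the TCA cycle 11 were negative, 2 of them at an unadjusted p under 0.05, led by Idh3a (-0.065, SE 0.023) and Pdha1 (-0.053, SE 0.022). Of 16 glycolytic genes 10 were negative (median -0.012), 0 at an unadjusted p under 0.05, with Tpi1 at -0.050 (SE 0.026). Of 20 carriers, cytochrome c and membrane-organising proteins 15 were negative (median -0.026), 3 at an unadjusted p under 0.05, led by Atpif1, the inhibitor of the ATP synthase (-0.099, SE 0.031, edgeR adjusted p = 0.12), and the somatic cytochrome c gene Cycs (-0.10, SE 0.033, edgeR adjusted p = 0.14).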

How the data were processed

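Per the labels' protocols, RNA came from freshly dissected cerebella and libraries from a stranded poly(A) kit. Raw counts by gene symbol were deposited, with no normalisation, and so was a comparison of their own with, per the file headers, a mean signal (baseMean), a log2 fold change with its standard error, a test statistic (score) and p-values. The submitters' processing notes name STAR, DESeq2 and mm10 and no version. How reads were counted, with or without strand and over which gene models, is not given in the sources used here. All count columns matched a sample (0 unmatched), and 0 entries lacked a gene name.

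Here R 4.3.3 and edgeR 4.0.16 were used: filterByExpr left 15467 genes, scaling was TMM, and glmQLFTest compared 6 WT with 6 cKO libraries at an adjusted p of 0.05, with no covariate. Intervals of 95% come from the test statistic. CPM are these scaled counts. The direction of the authors' deposited table was read from 400 genes called in both analyses. Each of the 400 had the same sign in both. Lengths are of GENCODE M21. In simulated data of 15467 genes the test recovered 34% of genes changed 1.1-fold, 74.7% at 1.2-fold and 96.7% at 1.5-fold, with 5.73% false calls. Between libraries of a group chi-square per degree of freedom was at least 2.68, so none were the same library.

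The members and lists were chosen with earlier results of these data known. Named genes were the 4 members with the smallest p and the highest and lowest level per length in each complex, core subunits, tissue isoforms and the 3 smallest p of each pathway list. Not every gene so chosen is reported here, but all enter the counts and sums. Atp5j, Ndufa9, Ndufc1, Ndufs4 and Ndufs6 were named for their promoter motifs, after their values were seen. Alternatives were other scaling, DESeq2 1.42.0, other filters, surrogate variables (sva 3.50.0), a covariate for neighbouring tissue, thinned counts, length offsets and each library left out. Of the 84 members 38 overlap another annotated gene, 30 on the opposite strand.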

Additional observations from a re-analysis of the deposited data

Results flagged for a closer look

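Of 110 groups of 6 libraries examined for a library far from the others, 7 held one, where chance gives about 1 in 20 groups. The gap to the nearest library was large against the range of the group in each case. WT 5 was low for Sdha (494 CPM, nearest 502), WT 1 was low for Atp5g3 (198 CPM, nearest 206) and WT 6 was high for Ndufv1 (167 CPM, nearest 157). Among the cKO libraries, cKO 4 was high for Uqcrh (168 CPM, nearest 159) and cKO 5 was high for Atp5g2 (39.7 CPM, nearest 36.8). The rare muscle isoforms had a high library each, cKO 2 for Cox6a2 (0.463 CPM, nearest 0.204) and cKO 5 for Cox8b (0.408 CPM, nearest 0.182), both resting on 20 counts. These 7 values come from 6 libraries.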

How the results depend on the processing

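Over 20 alternatives the number of members called higher stayed 0, and the number called lower was 0 except with DESeq2 and without WT 5, where it was 1 (Cox7b2, from 0 to 1 over the fits that leave out 1 library). The median log2 fold change of all members stayed negative, from -0.043 to -0.022 with 1 library left out and from -0.030 to -0.024 otherwise, with 59 to 75 and 60 to 72 members negative. Members lower at an unadjusted p under 0.05 numbered 4 without WT 3 and 19 without cKO 4. The median of complex III ranged from -0.030 to 0.0013 (without cKO 6) with 1 library left out. Calls over all genes were 91 higher and 98 lower with 3 surrogate variables, and ranged from 134 to 214 higher and from 138 (without WT 3) to 248 lower with 1 library left out. The cause was not tested. The adjusted p of Cox7b2 ranged from 0.027 to 0.58, the latter with surrogate variables (log2 fold change -0.52). Lyrm7, at -0.45 on the log2 scale, missed the threshold at -0.55 with surrogate variables (adjusted p = 0.071) and at -0.35 with thinned counts (0.11). Sdhaf1, at -0.18, missed it at a like size without the filter (-0.18, 0.052) and with the neighbouring tissue covariate (-0.17, 0.076), and at -0.14 with surrogate variables (0.49). Cycs passed without WT 6 (0.046) and Ckb without cKO 5 (0.018). Among 62 named genes, 48 of 1240 pairs of gene and alternative changed sign, in 13 genes, and 0 of the 48 were called in either fit. No paired analysis was possible because the labels give the groups no shared replicate numbers. Counts were lowest for Cox6a2 and Cox8b (at most 20 in a library), Cox7b2 (20 to 95) and Ndufa4l2 (31 to 137), which limits their precision.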
